A study of Homo sapiens with 6 samples.

Results

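The transcripts of 50 genes that copy DNA or supply its building blocks were followed in CD24+ and CD24- cells of 3 human myeloma lines. They are 50 of the 19775 genes that a probe set of the array named on its own. They comprise 9 origin licensing genes, 12 helicase genes, 4 genes of the origin firing kinases and cyclin E, 9 polymerase and primase subunits, 6 genes of the sliding clamp and its loader, 3 genes of the single-strand binding complex, 3 genes of strand maturation and uracil removal, and 4 genes of nucleotide supply. Each gene was read from the probe set annotated to it alone that had the highest mean over the arrays, and its other probe sets served as a check. All 50 genes passed the filter on dim probe sets, so no gene is missing from the counts below.

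ARP1, OCI-MY5 and OPM2 are established human lines of multiple myeloma, a malignancy of plasma cells, which secrete antibodies. A cytometer separated the cells of each line by their staining for CD24, a small glycosylated surface protein, and the study set the CD24+ cells, regarded by its submitters as cancer stem cells, against the CD24- cells. Each line gave 1 CD24+ and 1 CD24- array, 6 arrays in all, and the labels name no other treatment. Nothing in the labels says that a fraction was cultured or sorted more than once. In comparisons of lines both fractions of a line stood as its replicates (n = 2), and in the comparison of fractions the lines did (n = 3). The p-values measure only these spreads, which may be partly technical.

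Replication starts in the G1 phase, when the origin recognition complex with CDC6 and CDT1 loads the ring of MCM2 to MCM7 onto DNA. In S phase the kinases CDC7 with DBF4 and cyclin E with its partner turn that ring, with CDC45 and the GINS proteins, into an active helicase, and polymerases held on DNA by the PCNA clamp copy each strand. Ribonucleotide reductase, thymidylate synthase and thymidine kinase supply the deoxynucleotides, and many of these genes carry binding sites of E2F factors in their promoters.

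Promoter stretches are shown for 6 genes picked by hand and not by a rule. Of these, 4 were called higher in OPM2 than in another line (MCM6, GINS2, POLA2 and TYMS) and 2 were called lower (MCM7 and RRM2). Each stretch is the 100 bases before the first listed transcription start, read 5′ to 3′ on the gene's strand, from the RefSeq table of GRCh38.p14. Capitals mark any match to the 8-letter E2F-type motifs TTTCCCGC, TTTCGCGC, TTTGCCGC and TTTGGCGC on either strand, so that a match on the other strand reads, for example, GCGGGAAA. The stretches lie at chr2:135876444-135876543 (minus strand) for MCM6, chr16:85688955-85689054 (minus) for GINS2, chr11:65261862-65261961 (plus) for POLA2, chr18:657553-657652 (plus) for TYMS, chr7:100101398-100101497 (minus) for MCM7 and chr2:10122639-10122738 (plus) for RRM2.
MCM6: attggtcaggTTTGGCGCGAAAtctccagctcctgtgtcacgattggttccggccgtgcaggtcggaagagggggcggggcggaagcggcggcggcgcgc
GINS2: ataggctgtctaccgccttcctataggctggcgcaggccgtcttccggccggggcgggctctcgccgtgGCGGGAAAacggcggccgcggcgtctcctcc
POLA2: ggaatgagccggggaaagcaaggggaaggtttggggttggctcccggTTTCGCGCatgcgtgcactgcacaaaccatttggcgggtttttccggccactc
TYMS: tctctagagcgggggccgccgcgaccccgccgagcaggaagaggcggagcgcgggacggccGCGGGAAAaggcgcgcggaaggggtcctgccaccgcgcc
MCM7: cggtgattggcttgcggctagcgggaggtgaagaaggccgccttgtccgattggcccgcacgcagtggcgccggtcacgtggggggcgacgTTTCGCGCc
RRM2: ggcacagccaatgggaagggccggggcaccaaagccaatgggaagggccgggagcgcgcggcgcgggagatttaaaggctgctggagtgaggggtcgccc

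In these stretches MCM6 holds 2 overlapping matches, GINS2, POLA2, TYMS and MCM7 hold 1 each, and RRM2 holds none of the motifs. Over the full 300-base windows, 250 bases before the start and 50 from it on, 18 of the 43 genes in the table (41.9%) held at least 1 match, against 3.33% of all 27305 RefSeq windows and 4.36% of the 15384 windows of genes on the array. The genes with a match were ORC3, CDC6, CDT1, MCM2, MCM3, MCM6, MCM7, GINS1, GINS2, GINS3, POLA1, POLA2, POLE, POLE2, PCNA, RFC3, LIG1 and TYMS. CCAAT, searched on both strands, stood in 23 of the 43 windows (53.5%) and in 35.7% of all windows. Among 25 windows of genes of G2 and mitosis, held as a comparison, the E2F-type motifs stood in 3 (12.0%) and CCAAT in 20. Of the listed genes called higher in OPM2 than in another line, 10 had a window, and 5 of these held a match. Those without a match were GMNN, POLD2, RFC5, RRM1 and TK1, none of which is among the stretches shown. Of the genes called lower, 6 had a window, and 2 of these held a match. These matches describe letters of a window and not bound sites. Windows of MCM4, MCM5, GINS4, CCNE2, POLD3, RPA2 and RPA3 were not used here.

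All arrays were scaled to the same trimmed mean intensity, but the CD24+ array of OPM2 stood apart in other measures. Its median intensity was 135 against 69.0 to 84.2 on the other 5 arrays, and the geometric mean of 18 spike-in probe sets was 37362 against 6175 to 7400. The ratio of the 3′ to the 5′ probe set of ACTB, which rises as RNA or its copies lose their 5′ ends, was 2.63 and 2.47 in ARP1 (CD24+ first), 9.36 and 23.2 in OCI-MY5, and 27.1 and 7.54 in OPM2. All 10 plasma cell markers were brighter than the highest of 3 bacterial TrpnX probe sets that should find no target, with summed intensities of 124840 to 269980. Summed markers were 224 to 681 for B cells, 153 to 682 for T and NK cells, 162 to 865 for myeloid cells and 472 to 1091 for stromal and endothelial cells, and the last 3 sums were highest on the CD24+ array of OPM2. Erythroid markers, of which 2 of the 4 named were read, summed to 2385 and 1796 on the OPM2 arrays against 85.0 to 282 elsewhere. The OPM2 sums came almost wholly from HBB, at 2298 and 1793 (CD24+ first), while ALAS2 read 87.7 and 3.82. The probe set annotated only to CD24 was below the filter, with 29.0 and 47.2 (CD24+, then CD24-) in ARP1, 70.5 and 3.35 in OCI-MY5, and 99.2 and 58.6 in OPM2, so it gave no check of the sort. The part of these features in the results was not tested; counts of called genes are also given without the CD24+ array of OPM2.

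The 50 genes differed mainly by line and little by CD24. In such bulk RNA, fewer cells in S phase and less transcript per cell cannot be told apart. On the log2(intensity + 16) scale, the scale of every difference below, the median gene had 86.4% of its variance between lines, 4.34% between fractions and 6.83% in the remainder. The medians over all 12078 genes tested were 77.5%, 4.76% and 11.7%. Intensities of the 50 genes ran from 270 to 49599, all above the highest TrpnX value of 96.4.

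OPM2 differed from ARP1 in 14 of the 50 genes, 28.0%, where 25.0% of all genes tested passed the same threshold, an adjusted p below 0.05 by limma. Of these, 11 were higher in OPM2 (GMNN, MCM6, GINS2, POLA2, POLD2, POLD3, POLE, RFC5, RRM1, TYMS and TK1) and 3 were lower (MCM7, RFC2 and RRM2), while 10.1% and 14.8% of all genes were called higher and lower. OPM2 differed from OCI-MY5 in 12 genes, 24.0% against 26.1% of all genes. Here 5 were higher in OPM2 (MCM6, POLA2, POLD2, RFC5 and TK1), where 11.4% of all genes were, and 7 were lower (MCM7, DBF4, POLD1, POLE2, RFC2, RPA3 and RRM2), where 14.7% of all genes were. At an unadjusted p below 0.05 the counts were 21 and 18, against 40.3% of all genes in each comparison. The shares called were close to those of all genes in both comparisons. The 2 comparisons share the OPM2 arrays, so their calls are not independent of each other.

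The median difference of the 50 genes was 0.29 between OPM2 and ARP1 and -0.11 between OPM2 and OCI-MY5, beside -0.04 and -0.0017 for all genes. By any amount, 33 genes were higher and 17 lower in OPM2 than in ARP1 (48.4% and 51.6% of all genes), and 22 were higher and 28 lower than in OCI-MY5 (49.9% and 50.1%). With median centring these splits became 27 higher and 23 lower (64.2% of all genes lower) and 9 higher and 41 lower (68.2% of all genes lower). Between ARP1 and OCI-MY5 no listed gene was called by limma, where 2.62% of all genes were. At an unadjusted p below 0.05, 15 of the 50 differed, and so did 23.5% of all genes. In this comparison 42 of the 50 genes (84.0%) were lower in ARP1 by any amount, as were 47.2% of all genes, and the median was -0.31 against 0.04. The 8 genes higher in ARP1, where 52.8% of all genes were, were ORC4, CDT1, MCM5, MCM6, MCM7, GINS4, POLA1 and RRM2. The arrays of the lines did not overlap for 36 genes between OPM2 and ARP1 (65.6% of all genes), 37 between OPM2 and OCI-MY5 (65.8%) and 36 between ARP1 and OCI-MY5 (63.8%).

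These counts rest on few arrays. Without the CD24+ or without the CD24- array of ARP1, 1 gene was called between OPM2 and ARP1 (5.84% and 5.88% of all genes) and 3 between OPM2 and OCI-MY5 (14.6% both times). Without the CD24+ array of OCI-MY5 the counts were 3 and 1 (13.7% and 7.89% of all genes), and without its CD24- array 3 and 0 (13.7% and 7.71%). Without the CD24+ array of OPM2 they were 13 and 11 (26.7% and 26.5%), and without its CD24- array 14 and 18 (34.7% and 37.5%). After centring of the arrays on their medians, the medians of all genes were -0.30 and -0.40 in these comparisons, and no listed gene was called higher in OPM2 while 2 and 5 were called lower (15.4% and 17.9% of all genes were called in either direction).

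**Figure D1:**
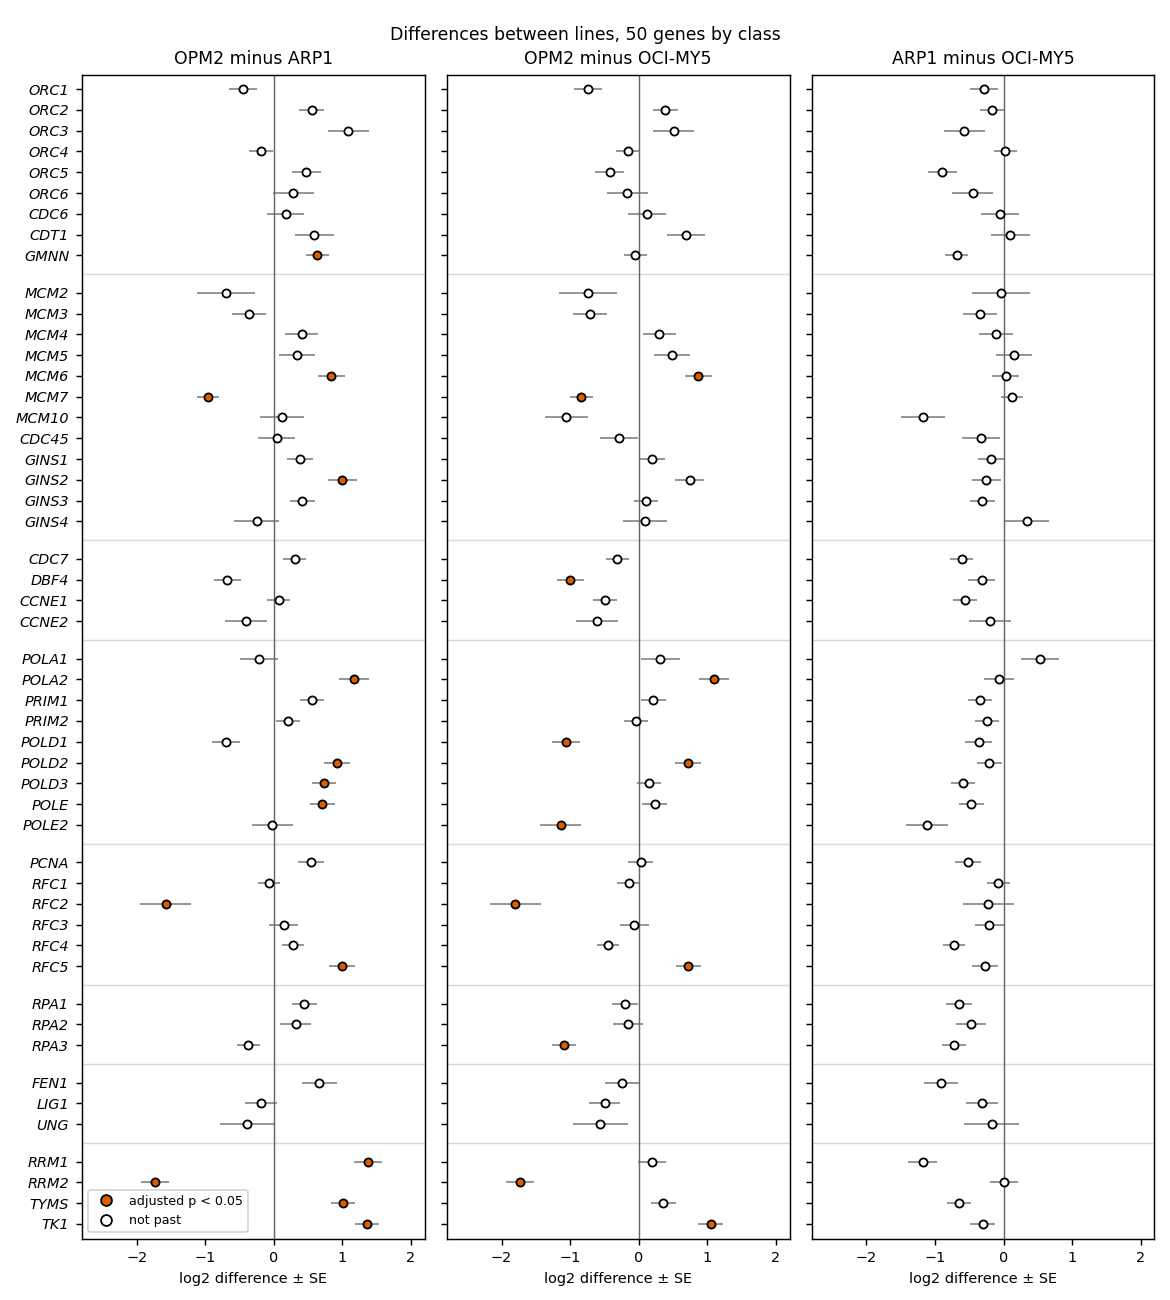
Differences between lines for the 50 genes, ordered by class from origin licensing to nucleotide supply, as log2 difference with its standard error from limma (n = 2 arrays per line). Filled points passed an adjusted p of 0.05: 11 genes higher and 3 lower in OPM2 than in ARP1, 5 higher and 7 lower than in OCI-MY5, and none between ARP1 and OCI-MY5; with median centring no gene was called higher in OPM2.

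Of the 9 origin licensing genes, 1 was called higher in OPM2 than in ARP1 and none was called in the other comparisons by limma, where 3, 1 and 2 genes had an unadjusted p below 0.05. The called gene was GMNN, whose product geminin blocks CDT1 and so prevents a second round of licensing. In this and the following sentences the CD24+ value of a line comes first. GMNN read 5905 and 5751 in ARP1, 9369 and 9351 in OCI-MY5, and 9535 and 8556 in OPM2. ARP1 lay below both other lines, by 0.63 ± 0.17 (SE, adjusted p = 0.0495) against OPM2. ORC3, a subunit of the origin recognition complex, had the widest range between lines in this class, at 1450 and 848 in ARP1, 1756 and 1560 in OCI-MY5, and 2571 and 2184 in OPM2. OPM2 was the highest line and ARP1 the lowest with no overlap, but the difference of 1.08 ± 0.30 had an adjusted p of 0.0547. The remaining subunits ORC1, ORC2, ORC4, ORC5 and ORC6 and the loaders CDC6 and CDT1 differed by -0.45 to 0.59 between OPM2 and ARP1, none past the threshold.

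Subunits of the helicase ring went opposite ways in OPM2. MCM6 read 8540 and 9665 in ARP1, 8709 and 9045 in OCI-MY5, and 14525 and 18098 in OPM2. Both OPM2 arrays were above all others, by 0.83 ± 0.20 against ARP1 (adjusted p = 0.0363) and 0.87 ± 0.20 against OCI-MY5 (adjusted p = 0.0318), 1.78-fold and 1.83-fold. MCM7, another subunit of the ring, read 5466 and 5256 in ARP1, 5070 and 4768 in OCI-MY5, and 2816 and 2672 in OPM2. OPM2 lay below all other arrays in both fractions, by 0.96 ± 0.16 against ARP1 (adjusted p = 0.0159) and 0.84 ± 0.16 against OCI-MY5 (adjusted p = 0.0219). The 2 values within each line lay close together for MCM7, with SDs of 0.04 to 0.06 on the log2 scale.

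The remaining ring subunits MCM2, MCM3, MCM4 and MCM5 were not called, with differences of -0.70, -0.36, 0.41 and 0.34 between OPM2 and ARP1. GINS2, which with GINS1, GINS3 and GINS4 forms the complex that joins CDC45 and the ring, was higher in OPM2 than in ARP1. Its values were 2909 and 3088 in ARP1, 3502 and 3639 in OCI-MY5, and 6958 and 5169 in OPM2. The OPM2 arrays were the highest, 2.00-fold against ARP1 (SE 0.21 on the log2 scale, adjusted p = 0.0272) and by 0.75 ± 0.21 against OCI-MY5 (adjusted p = 0.0560). MCM10, which helps to start the fork, had the widest range of the class, at 2932 and 2771 in ARP1, 5965 and 6994 in OCI-MY5, and 2309 and 4152 in OPM2. OCI-MY5 was the highest line without overlap, but neither its difference from ARP1 (1.18 ± 0.32 lower in ARP1, adjusted p = 0.115) nor from OPM2 (adjusted p = 0.0649) passed.

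Of the 4 genes that fire origins, DBF4, the activating subunit of the CDC7 kinase, was lower in OPM2 than in OCI-MY5. DBF4 read 7105 and 5771 in ARP1, 8390 and 7576 in OCI-MY5, and 3758 and 4224 in OPM2. The lowest values were those of OPM2, 2.00-fold against OCI-MY5 (SE 0.20 on the log2 scale, adjusted p = 0.0224) and by 0.68 ± 0.20 against ARP1 (adjusted p = 0.0609). The kinase gene CDC7 and the cyclins CCNE1 and CCNE2 differed by -0.61 to -0.31 between OPM2 and OCI-MY5, none called.

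Polymerase subunits also split in OPM2. POLA2, the regulatory subunit of the polymerase that lays down primers, read 1001 and 794 in ARP1, 1014 and 863 in OCI-MY5, and 1834 and 2224 in OPM2. Both OPM2 arrays were above all others, 2.24-fold against ARP1 (1.16 ± 0.22, adjusted p = 0.0204) and 2.14-fold against OCI-MY5 (adjusted p = 0.0231). Its catalytic partner POLA1 differed by -0.22 and 0.31 in the same comparisons, neither called. In polymerase delta, which makes most of the lagging strand, POLD2 was higher in OPM2, by 0.92 ± 0.19 against ARP1 (adjusted p = 0.0252) and 0.72 ± 0.19 against OCI-MY5 (adjusted p = 0.0468). POLD1, the catalytic subunit of the same enzyme, read 1926 and 1933 in ARP1, 2821 and 2184 in OCI-MY5, and 1137 and 1233 in OPM2. Again the lowest values were those of OPM2, by 1.06 ± 0.20 against OCI-MY5 (adjusted p = 0.0195) and 0.70 ± 0.20 against ARP1 (adjusted p = 0.0595).

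Polymerase epsilon makes most of the leading strand. Its catalytic subunit gene POLE was higher in OPM2 than in ARP1 by 0.71 ± 0.18 (adjusted p = 0.0471). POLE2, a further subunit, read 1052 and 1072 in ARP1, 2245 and 2395 in OCI-MY5, and 784 and 1390 in OPM2. OCI-MY5 lay above the other 2 lines, by 1.14 ± 0.30 against OPM2 (adjusted p = 0.0472) and 1.12 ± 0.30 against ARP1 (adjusted p = 0.116), and the OPM2 and ARP1 arrays overlapped. POLD3 was higher in OPM2 than in ARP1 by 0.73 ± 0.18 (adjusted p = 0.0384), and the primase genes PRIM1 and PRIM2 differed by 0.56 and 0.21, not called.

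The clamp loader is a ring of 5 RFC proteins that opens the PCNA clamp, and 2 of its genes moved in opposite directions in OPM2. RFC2 read 1886 and 2059 in ARP1, 2167 and 2436 in OCI-MY5, and 446 and 941 in OPM2. In OPM2 both values were below all others, 2.99-fold against ARP1 (log2 difference -1.58 ± 0.37, adjusted p = 0.0357) and 3.48-fold against OCI-MY5 (-1.80 ± 0.37, adjusted p = 0.0246). RFC5 read 1849 and 1698 in ARP1, 2175 and 2094 in OCI-MY5, and 3201 and 3909 in OPM2. In OPM2 both values were above all others, by 0.99 ± 0.19 against ARP1 (adjusted p = 0.0206) and 0.72 ± 0.19 against OCI-MY5 (adjusted p = 0.0451). RFC1, RFC3 and RFC4 differed by -0.07, 0.14 and 0.28 between OPM2 and ARP1 and were not called. PCNA itself read 16266 and 18069 in ARP1, 24853 and 24196 in OCI-MY5, and 22819 and 27336 in OPM2, with ARP1 the lowest line and no call.

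RPA coats the single strands that the helicase exposes. Its smallest subunit, RPA3, read 6624 and 7650 in ARP1, 11836 and 11607 in OCI-MY5, and 5547 and 5453 in OPM2. The 3 lines did not overlap, and OPM2 was lower than OCI-MY5 by 1.09 ± 0.17 (adjusted p = 0.0120), 2.13-fold. RPA1 and RPA2 differed by -0.20 and -0.16 in that comparison and were not called. Of the genes of strand maturation and uracil removal, none was called in a comparison of lines by limma, where 1 of the 3 had an unadjusted p below 0.05 between OPM2 and ARP1, none between OPM2 and OCI-MY5 and 1 between ARP1 and OCI-MY5. FEN1, the nuclease that trims Okazaki fragments, had the widest range, at 8986 and 5953 in ARP1, 14533 and 13034 in OCI-MY5, and 12035 and 11182 in OPM2. ARP1 was the lowest line without overlap, by 0.91 ± 0.25 against OCI-MY5 (adjusted p = 0.120). On the second FEN1 probe set OPM2 was the lowest line on average, at 1631 and 3231, and overlapped ARP1, at 3075 and 2962.

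On their brightest probe sets, all 4 nucleotide supply genes were called between OPM2 and ARP1, where 25.0% of all genes were. On the second bright probe set of each, none of the 4 passed by limma on every probe set on its own. On their brightest probe sets the subunits of ribonucleotide reductase went opposite ways, which the second probe set of RRM1 did not share. RRM1, the large subunit that holds the catalytic and regulatory sites, read 3559 and 4474 in ARP1, 8979 and 9104 in OCI-MY5, and 11433 and 9365 in OPM2. ARP1 was below both other lines, 2.59-fold below OPM2 (log2 difference 1.37 ± 0.21, adjusted p = 0.0120), while OPM2 and OCI-MY5 differed by 0.19 ± 0.21. The second RRM1 probe set gave -0.43 between OPM2 and ARP1, and the mean of all probe sets gave 0.47 (adjusted p = 0.233). RRM2, the small subunit that carries the radical and whose level limits the enzyme in S phase, read 49599 and 37795 in ARP1, 41780 and 44061 in OCI-MY5, and 12533 and 13427 in OPM2. The OPM2 values were below all others, 3.33-fold against ARP1 (-1.74 ± 0.20, adjusted p = 0.00584) and 3.30-fold against OCI-MY5 (-1.72 ± 0.20, adjusted p = 0.00563). The second RRM2 probe set, described below, gave a much smaller difference.

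TK1, the S-phase thymidine kinase that salvages thymidine, read 1337 and 1210 in ARP1, 1676 and 1482 in OCI-MY5, and 3427 and 3141 in OPM2. Both OPM2 arrays were above all others, 2.56-fold against ARP1 (1.36 ± 0.18, adjusted p = 0.00811) and 2.07-fold against OCI-MY5 (1.05 ± 0.18, adjusted p = 0.0146). On the second TK1 probe set, described below, neither difference passed. TYMS, the enzyme that makes thymidylate from deoxyuridylate and the target of fluoropyrimidine drugs, read 19009 and 17025 in ARP1, 28055 and 28460 in OCI-MY5, and 39001 and 33601 in OPM2. The lines were ordered ARP1, OCI-MY5, OPM2 without overlap. OPM2 was 2.01-fold above ARP1 (1.01 ± 0.18, adjusted p = 0.0176) and not called against OCI-MY5 (0.36 ± 0.18, adjusted p = 0.202). With the mean of all probe sets of each gene in place of the brightest, the TYMS difference between OPM2 and ARP1 changed sign.

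**Figure D2:**
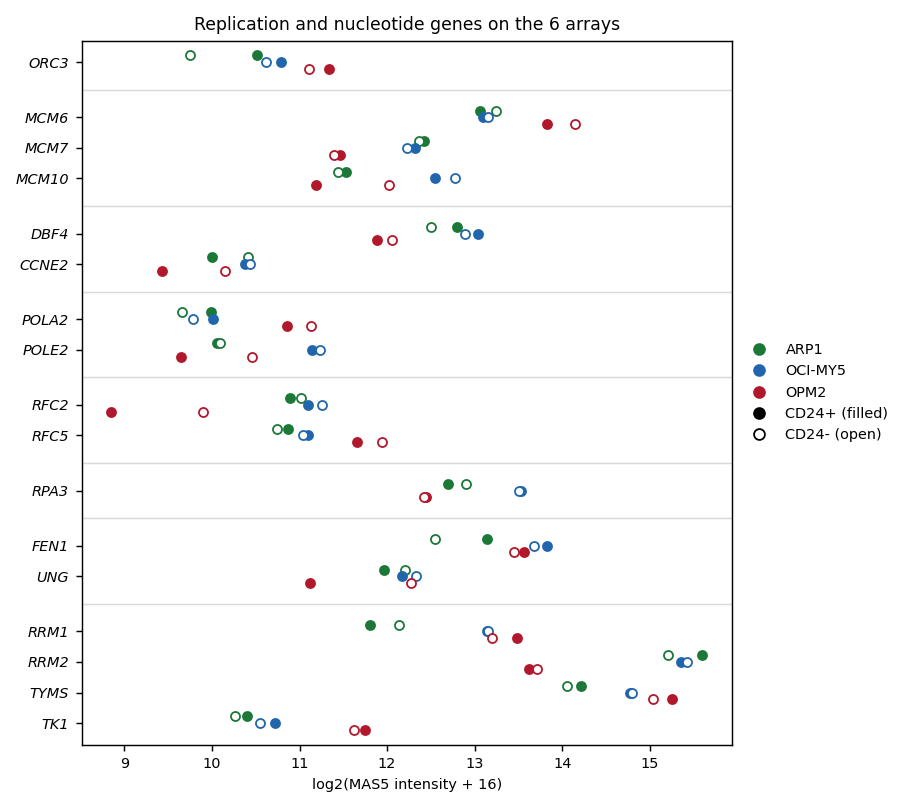
Levels of 17 of the genes on each of the 6 arrays as log2(MAS5 intensity + 16), by line (colour) and CD24 fraction (filled or open); levels of different genes are not comparable. OPM2 stands above both other lines for ORC3, MCM6, POLA2, RFC5, RRM1, TYMS and TK1 and below them for MCM7, DBF4, RFC2, RPA3 and RRM2. Of all genes tested, 65.6% did not overlap between OPM2 and ARP1 and 65.8% between OPM2 and OCI-MY5. The 2 fractions of a line lie near each other for most genes.

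No gene of the 50 differed between CD24+ and CD24- cells by limma, where 0.00% of all genes tested did. None reached an unadjusted p below 0.05, which 1.23% of all genes did, and none did with the cell line as a block either, where 4.64% of all genes did. The lowest unadjusted p was 0.185, and 0.0997 with the block. The median difference was -0.01 for the 50 genes and 0.03 for all genes. On average 24 genes were higher and 26 lower in CD24+ cells, where 45.0% of all genes were lower, and with median centring 1 was higher and 49 lower, where 81.3% of all genes were lower. In all 3 lines 14 genes were lower in CD24+ cells, 28.0% against 12.2% of all genes, and 7 were higher, 14.0% against 16.9%. The 14 were ORC1, CDC6, CDT1, MCM3, MCM6, CCNE1, CCNE2, PRIM1, POLE2, RFC2, RFC3, RPA1, RPA2 and UNG, and the 7 were ORC3, GMNN, MCM7, RFC1, RFC4, FEN1 and TK1. With quantile normalization the counts were 11 and 8, against 13.5% and 14.5% of all genes, and with median centring 29 and 0, against 34.6% and 4.03% of all genes. With the mean of all probe sets they were 13 and 4, against 12.8% and 16.8% of all genes. Among the 14, the other bright probe sets of MCM6 and RFC2 were also lower in every line. For CDC6, CDT1, CCNE2, RFC3 and RPA1 at least 1 was higher in a line, and RFC3 read 2831 on both ARP1 arrays. Among the 7, the second bright probe sets of MCM7, RFC1, FEN1 and TK1 were not higher in every line.

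Of the genes with 1 direction in all lines, the mean difference was largest for UNG, which removes uracil from DNA. UNG read 3974 in CD24+ and 4699 in CD24- cells of ARP1, 4605 and 5150 in OCI-MY5, and 2210 and 4926 in OPM2. The CD24+ value was the lower in each line, with differences of -0.24, -0.16 and -1.15 (mean -0.52 ± 0.55, SD over 3 lines), and most of it came from OPM2. RFC2 followed with -0.45 ± 0.52, from -0.13, -0.17 and -1.05, and without both OPM2 arrays its mean difference was -0.15. CCNE2, a cyclin E that rises at the start of S phase, read 1005 and 1341 in ARP1, 1313 and 1363 in OCI-MY5, and 673 and 1122 in OPM2, a mean of -0.40 ± 0.34. The second CCNE2 probe set was higher in CD24+ cells of ARP1 (0.49) and OCI-MY5 (0.65) and lower in OPM2 (-0.92), a mean of 0.08. ORC3 was the largest of the genes higher in CD24+ cells, at 0.39 ± 0.33, of which ARP1 gave 0.76. In the limma fit without a block, which keeps the differences between lines in its spread, the adjusted p was 1 for each of these 4 genes. With the cell line as a block in limma, the unadjusted p was 0.116 for UNG, 0.148 for RFC2, 0.111 for CCNE2 and 0.112 for ORC3. The adjusted p with the block was 0.847 for each.

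Within a line each fraction had 1 array, so the following differences have no replicate check. In ARP1 the 50 genes had a median difference of -0.0045, with 3 genes at least 1.5-fold higher in CD24+ cells (ORC3, CDC45 and FEN1; 6.99% of all genes were) and none that much lower (6.65% of all genes). In OCI-MY5 the median was -0.01 and no gene differed by 1.5-fold in either direction, where 10.1% of all genes were that much higher and 5.32% that much lower. In OPM2 the median was -0.17, beside 0.06 for all genes. There 9 genes, 18.0% against 13.0% of all genes, were at least 1.5-fold lower in CD24+ cells. They were CDC6, MCM2, MCM10, GINS4, CCNE2, POLA1, POLE2, RFC2 and UNG, and the lowest was MCM2 at -1.18. MCM2 read 2730 and 6198 (CD24+, then CD24-) in OPM2, 6662 and 6726 in ARP1, and 7986 and 5882 in OCI-MY5. By any amount, 28 genes were lower in CD24+ cells in ARP1 (48.6% of all genes), 28 in OCI-MY5 (46.0%) and 31 in OPM2 (46.2%). ORC6 alone was that much higher in CD24+ cells of OPM2, at 0.69, where 23.2% of all genes were.

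**Figure D3:**
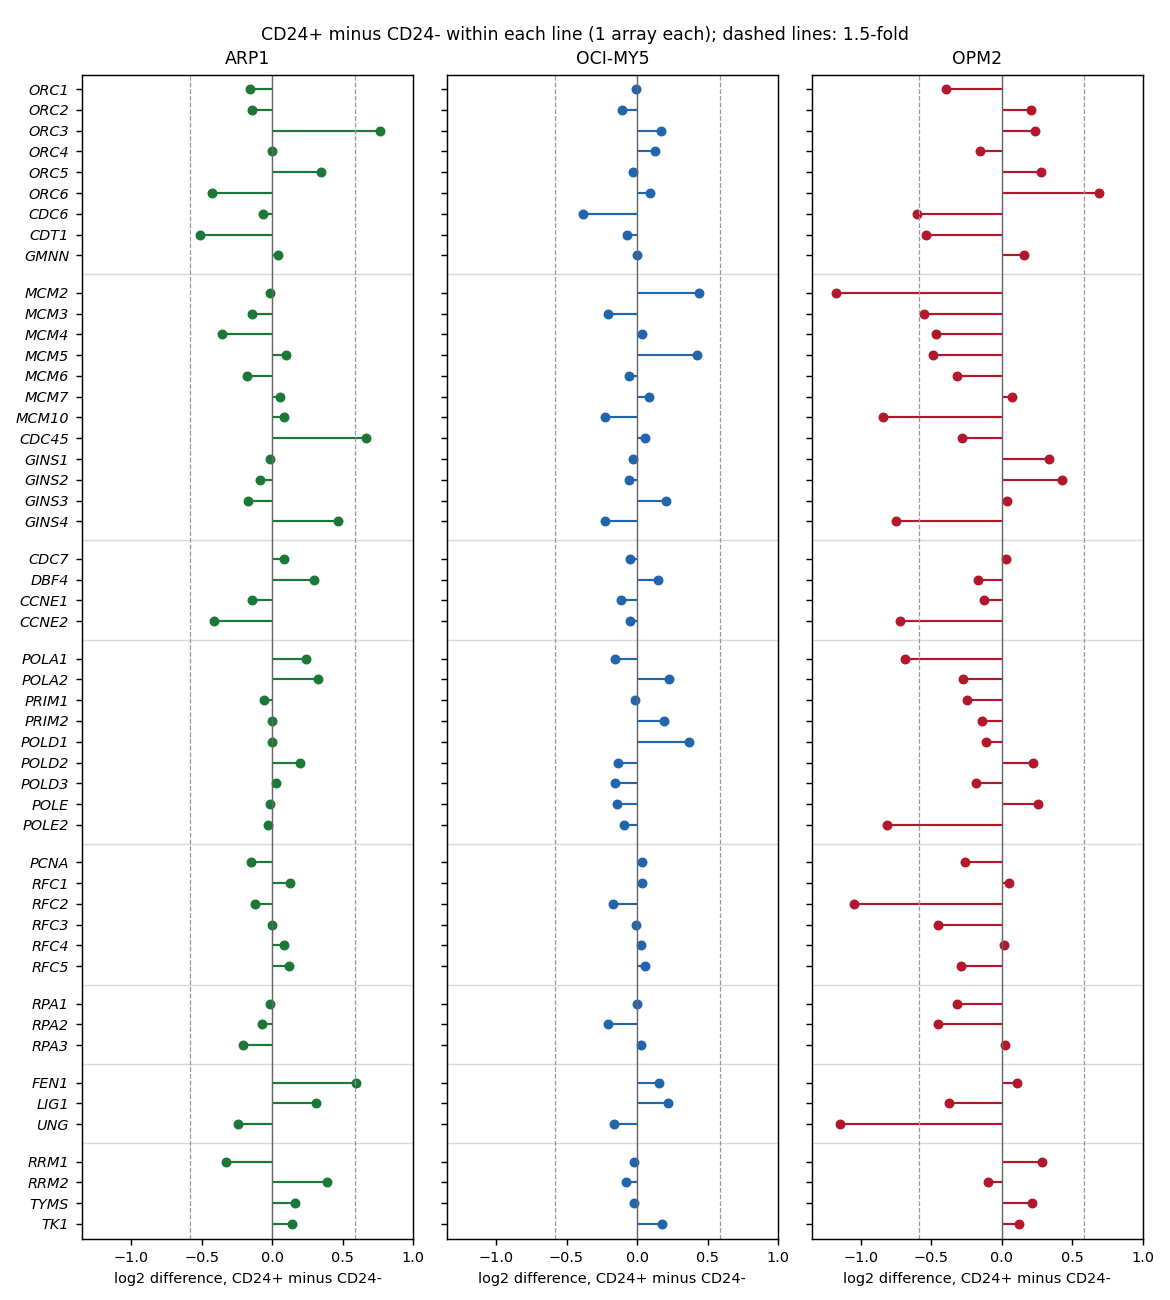
Log2 difference of CD24+ minus CD24- cells for each of the 50 genes in each line, with 1 array per fraction and dashed lines at 1.5-fold. The points lie near 0 in ARP1 and OCI-MY5 with medians of -0.0045 and -0.01, and reach further below 0 in OPM2, where 9 genes are at least 1.5-fold lower and 1 is higher.

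The probe sets of a gene gave differences of unequal size in OPM2. Of 91 probe sets annotated to the 50 genes alone, 87 were bright enough to be tested, and 26 genes had 37 bright probe sets beside the one used. On the CD24+ against the CD24- array of OPM2, 19 of these 37 (51.4%) were at least 1.5-fold lower, against 23.3% of the 10356 such probe sets of all genes. Their median difference was -0.67, while the median of the brightest probe sets they were paired with was -0.23. In ARP1 3 of the 37 (9.97% of all such probe sets) and in OCI-MY5 6 (10.3%) were that much lower. The sign was that of the brightest probe set in 20 of the 37 for ARP1, 18 for OCI-MY5 and 23 for OPM2. For GINS3 the second probe set read 168 in CD24+ and 746 in CD24- cells of OPM2, where the first read 1079 and 1051. For TYMS the second read 2309 and 5981, where the first read 39001 and 33601, and for RFC3 428 and 1203, where the first read 2670 and 3666. The ACTB 3′ to 5′ ratio was 27.1 on the CD24+ and 7.54 on the CD24- array of OPM2, and its part in these differences was not tested. On OCI-MY5 the ratio was the higher in CD24- cells, 23.2 against 9.36.

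**Figure D4:**
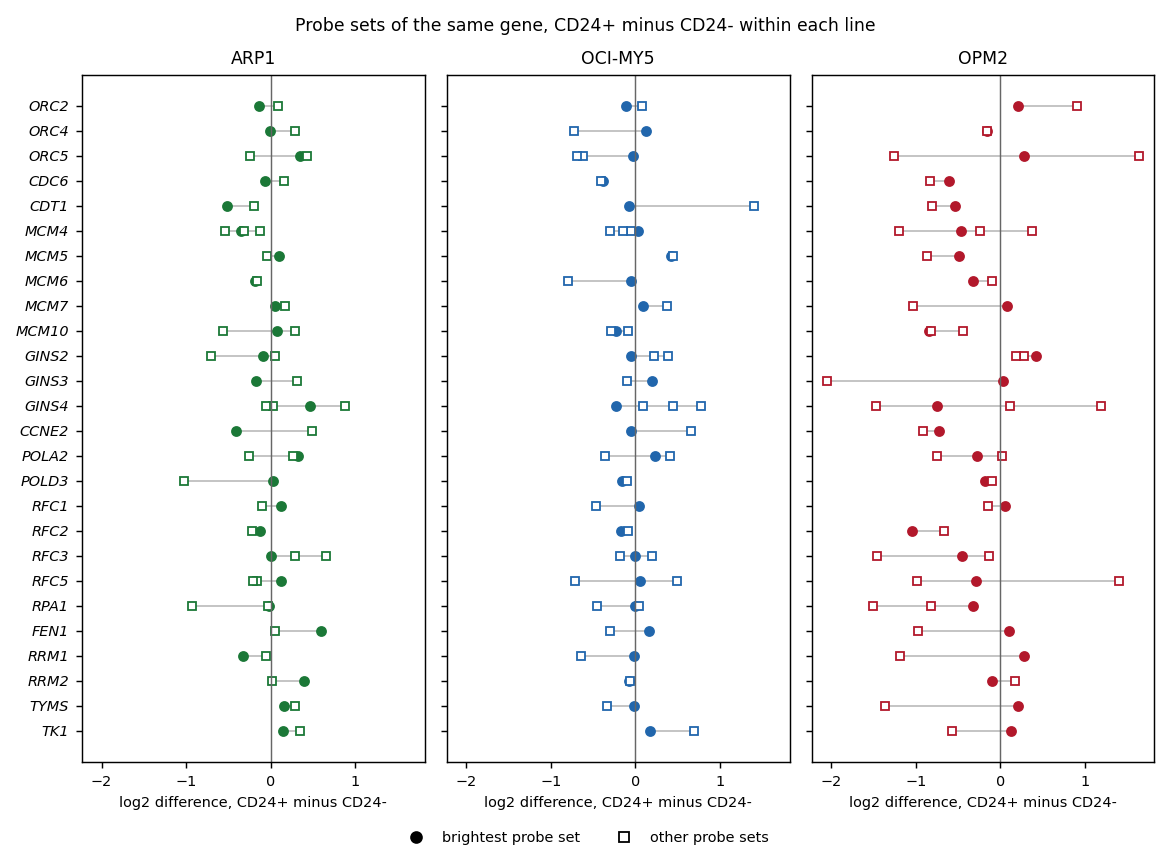
Log2 difference of CD24+ minus CD24- cells in each line for the 26 genes with more than 1 bright probe set, with the brightest as a circle and the others as squares. In OPM2, 19 of the 37 squares lie at least 1.5-fold below 0, against 3 in ARP1 and 6 in OCI-MY5.

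Some differences between lines also depended on the probe set. The following adjusted p-values come from limma on every probe set on its own. For RFC2 the second probe set read 1209 and 1408 in ARP1, 1335 and 1413 in OCI-MY5, and 392 and 631 in OPM2, and was again lower in OPM2, by 1.36 (adjusted p = 0.0332) and 1.43 (adjusted p = 0.0280). The second MCM7 probe set was also lower in OPM2, by 1.81 against ARP1 (adjusted p = 0.0348) and 1.46 against OCI-MY5 (adjusted p = 0.0575). A second POLA2 probe set differed by 1.26 between OPM2 and ARP1 (adjusted p = 0.0552), and the third, at 22.1 and 15.8 in ARP1, was there within the range of the TrpnX probe sets. For RRM2 the second probe set read 27983 and 27723 in ARP1, 21649 and 22681 in OCI-MY5, and 20160 and 17870 in OPM2, where the differences of -0.55 (adjusted p = 0.110) and -0.22 (adjusted p = 0.450) did not pass.

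For RRM1 the second probe set read 1003 and 1041 in ARP1, 720 and 1132 in OCI-MY5, and 495 and 1146 in OPM2. That is -0.43 between OPM2 and ARP1 (adjusted p = 0.538), opposite in sign to the brightest. The second TYMS probe set was opposite too, at -0.42 (adjusted p = 0.571). The second TK1 probe set read 1799 and 1413 in ARP1, 1360 and 835 in OCI-MY5, and 1850 and 2748 in OPM2. Its differences of 0.50 and 1.07 against ARP1 and OCI-MY5 did not pass by limma (adjusted p = 0.36 and 0.0933). For RFC5 the other probe sets differed by 0.22 and 1.29 between OPM2 and ARP1, neither called. POLD1, POLD2, POLE2, RPA3 and DBF4 were read from a single probe set. Over the 37 further probe sets, the sign was that of the brightest in 24 for OPM2 against ARP1, 29 for OPM2 against OCI-MY5 and 30 for ARP1 against OCI-MY5.

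Other genes of the same processes were compared between lines too, where 25.0%, 26.1% and 2.62% of all genes were called in the order OPM2 against ARP1, OPM2 against OCI-MY5 and ARP1 against OCI-MY5. Of 36 further replication factors, 2 were called higher and 2 lower in OPM2 than in ARP1, 1 higher and 1 lower than in OCI-MY5, and 1 was called higher in ARP1 than in OCI-MY5. ASF1B, a histone chaperone at the fork, was higher in OPM2 by 1.63 and 1.17 against ARP1 and OCI-MY5, and CDCA7 was lower in OPM2 than in ARP1 by 1.66. DSCC1 was lower in OPM2 than in OCI-MY5 by 1.22. Of 31 other nucleotide synthesis genes, 2 were called higher and 6 lower in OPM2 than in ARP1, and 3 higher and 5 lower than in OCI-MY5. CAD, the enzyme that starts pyrimidine synthesis, was lower by 1.70 and 1.43, and GART of purine synthesis was lower by 1.21 and 1.18. APRT, which salvages adenine, was higher by 1.39 and 1.49, and ATIC was lower than in ARP1 by 1.36.

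Of the 13 genes of the E2F and RB family, 3 were called higher and 1 lower in OPM2 than in ARP1, and 3 and 1 than in OCI-MY5. E2F6, a repressor of the family, was lower in OPM2 by 1.79 and 1.54, and RBL1 and RB1, which restrain E2F factors, were higher by 1.03 and 1.68 and by 0.88 and 1.24. E2F1 was higher in OPM2 than in ARP1 by 1.18. In the limma fit without a block, none of the genes of these 3 lists, nor of the 30 genes of G2 and mitosis, was called between CD24+ and CD24- cells. None of them had an unadjusted p below 0.05 in that fit, which keeps the differences between lines in its spread. With the cell line as a block, 0 of the 12078 genes tested were called, and unadjusted counts of these lists are not given here. The G2 and mitosis genes had a median difference of 0.23 between the fractions, with 29 of 30 higher in CD24+ cells on average, where 45.0% of all genes were lower, 10 of them higher in all 3 lines and none lower in all 3. Their medians were 0.44 in ARP1 and 0.32 in OPM2, with 28 and 23 of 30 higher, but -0.028 in OCI-MY5, with 14 higher and 16 lower. The corresponding counts of the 50 replication and nucleotide genes were 24 higher on average, 7 higher in all 3 lines and 14 lower in all 3.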

How the data were processed

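Labelled cDNA from 100 ng of RNA of sorted cells was measured on Human Genome U133 Plus 2.0 arrays (labels' protocols). The authors computed MAS5 values with Affymetrix Expression Console 1.1, per the submitters' processing notes. Each deposited value is the linear intensity of a probe set on an array, scaled to a common trimmed mean. Because MAS5 values can move with the 3′ position of a probe set and with RNA quality, every probe set of a gene was compared.

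Of 54675 probe sets, 62 controls were left out, and 41091 had 1 gene symbol, 1801 several and 11721 none in the platform annotation; 41037 matched the RefSeq gene table. Values were transformed as log2(intensity + 16), the probe set with the highest mean stood for each gene, and the 12078 genes whose mean reached 6.36, the median over probe sets, entered the tests. Probe sets of CDT1 and ORC6 are of the x_at kind, which can bind related transcripts.

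The two-sided tests were those of limma 3.58.1 under R 4.3.3 (eBayes after lmFit, Benjamini-Hochberg adjustment over all genes tested at 0.05), checked on simulated data. The comparison of fractions used all 6 arrays without a block, as the series' design text states no pairing. The numbers in the titles stand for the lines and so pair the samples: the correlation of deviations from the means of the fractions was 0.704, 0.706 and 0.768 within a line and -0.759 to 0.146 between lines. Comparisons of lines took the 3 lines in 1 fit.

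The genes, the lists beside them, the alternatives and the naming rule were chosen with earlier results of these data known. The rule gave all values to the 4 highest and 4 lowest called genes of each comparison of lines, the 4 genes with the largest mean CD24 difference of 1 sign in all lines, and the gene with the widest range in each class. From each related list it took up to 3 called genes with the largest differences. Genes named beyond it were chosen after their values were seen: GMNN, GINS2, POLD1, POLD2, POLD3, POLE, PCNA and MCM2 with values, the second probe sets, and GART and E2F1. Promoter motifs were searched in the first listed window of each gene. The 6 genes with printed stretches were picked outside the rule, with the differences between lines known. Scan dates and raw scanner files were not used here. Alternatives were other pseudocounts, filters and scalings, other uses of the probe sets, an intensity trend, the block or the fraction as a covariate, and leaving out arrays or lines.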

Additional observations from a re-analysis of the deposited data

How the results depend on the processing

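Between OPM2 and ARP1, where 14 genes passed, 3 did with no filter on dim genes and 2 with median centring (7.23% and 15.4% of all genes); between OPM2 and OCI-MY5, where 12 passed, 1 and 5 did (8.29% and 17.9%). With the CD24 fraction as a covariate 10 and 9 passed (19.8% and 21.6% of all genes), 9 and 9 of them also called without it, and 0 between ARP1 and OCI-MY5, where 6 of all genes passed. Between ARP1 and OCI-MY5, where none passed, 1 did with a pseudocount of 64 (6.13% of all genes). In that comparison 11 passed both with a filter at the 75th percentile and with an intensity trend in the prior variance, where 16.8% and 11.4% of all genes passed. Leaving out 1 array gave 1 to 14, 0 to 18 and 0 to 3 genes in the 3 comparisons; the line left with 1 array is then assumed to vary like the others. Between the fractions 0 of the 50 genes passed in limma under every alternative run, leaving out 1 array or line included. In each of these 0.00% of all genes passed as well. An unadjusted p below 0.05 was reached by 0 of the 50 genes, and by 1.23% of all genes in the main fit and 4.64% with the block. The cell line as a replicate block also gave 0 genes between the fractions.

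Median centring moved the medians of the 50 genes to -0.34 between fractions, 0.027 for OPM2 against ARP1, -0.50 for OPM2 against OCI-MY5 and -0.44 for ARP1 against OCI-MY5, with those of all genes at -0.30, -0.30, -0.40 and -0.09. The mean of all probe sets gave 0.17 for OPM2 against ARP1. Leaving out arrays or lines gave -0.16 to 0.045 between fractions. The ends of that range came from fits without the CD24- and without the CD24+ array of ARP1. These fits have no block and keep ARP1 in 1 fraction only, so differences between lines enter them. Leaving out a whole line gave -0.057 (ARP1), -0.075 (OCI-MY5) and 0.0060 (OPM2). Between lines, leaving out arrays gave 0.15 to 0.38, -0.19 to 0.023 and -0.34 to -0.26, in the same order. Of 316 alternative values for the 19 named differences, 241 kept direction and side of the threshold, 73 lost the threshold and 2 changed sign: TYMS between OPM2 and ARP1 with the mean of all probe sets (-0.50, adjusted p = 0.336 by limma) and RFC2 between fractions without the CD24+ array of OPM2 (0.27; -0.86 without its CD24- array). These 2 RFC2 fits have no block, so the low RFC2 level of OPM2 stays in 1 fraction only; without both OPM2 arrays the value was -0.15. The cause of the TYMS change was not tested. The number of arrays limits the precision. Choosing the brightest probe set by its linear mean, an alternative chosen after seeing the data, changed the probe set of MCM7 alone among the 50 genes. It again gave 14, 12 and 0 called genes between lines (25.5%, 26.6% and 2.76% of all genes).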
